A study of Homo sapiens with 2 samples.

Results

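Expression of 8 transcription factor genes of the neural crest and the melanocyte lineage was described in 2 human melanoma cell lines: PAX3, TFAP2A, TFAP2B, TFAP2C, FOXD3, MSX1, MSX2 and IRF4. The members were all probe sets whose platform annotation names 1 of these genes. There were 23 such probe sets among 54675 on the array, and 8 genes among 19775 with a named probe set. IGR39 derives from an achromic primary tumour of the skin, and IGR37 from a metastasis in a lymph node. The labels name no treatment for either line, both were grown in DMEM with serum, and each was measured on 1 Affymetrix Human Genome U133 Plus 2.0 array of biotin-labelled cRNA. Each line stands for 1 culture of 1 tumour, so site of origin and every other property of the lines cannot be told apart. Without a replicate no test could be made, and differences are given without a standard error.

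The neural crest is the embryonic cell population from which melanocytes, glia and peripheral neurons arise. At the border of the neural plate, BMP and Wnt signals induce MSX, PAX3 and AP-2 factors, which in turn start the genes of the crest itself, among them FOXD3 and the SOX factors. In cells that enter the pigment lineage, PAX3 acts with SOX10 on MITF, FOXD3 restrains that step, and IRF4 works with MITF on the tyrosinase gene TYR. Melanoma cells can keep, lose or regain parts of this program.

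Values are log2 expression levels made with RMA, in which 1 unit is a 2-fold difference. A level is compared only within a probe set, since probe sets differ in how brightly they respond. Differences are the level in IGR37 minus that in IGR39, and each gene is represented by the probe set whose mean of both levels is highest. A gene was counted if that probe set reached log2 6 in at least 1 line. Levels below this minimum lie near the background of the array, where RMA compresses differences. Among probe sets that reached log2 6, the spread of differences between those of the same gene was 0.40 (pooled SD over 3178 genes). It leaves out disagreement with probe sets under the minimum. Hybridisation controls differed between the arrays by -0.14 to 0.21, and the poly-A controls by -0.47 to 0.68. These yardsticks cover the array and the probes, not the spread between cultures.

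The 8 factors divided between the lines. IRF4, PAX3 and TFAP2A were at least 2-fold higher in the metastasis line, with differences of 4.55, 1.40 and 1.31. TFAP2C and MSX2 were at least 2-fold lower there, with differences of -2.18 and -2.13. MSX1 lay within 2-fold, and TFAP2B and FOXD3 stayed under log2 6 in both lines. Of 8501 genes at or above the minimum, 11.4% were higher in IGR37 by 2-fold or more, 9.50% were lower by as much, and 21.0% differed so in either direction. The median difference of these genes was 0.07. IRF4, PAX3, MSX1 and MSX2 reached the minimum in only 1 of the lines, so a gene of this kind that enters the count tends to differ.

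**Figure D1:**
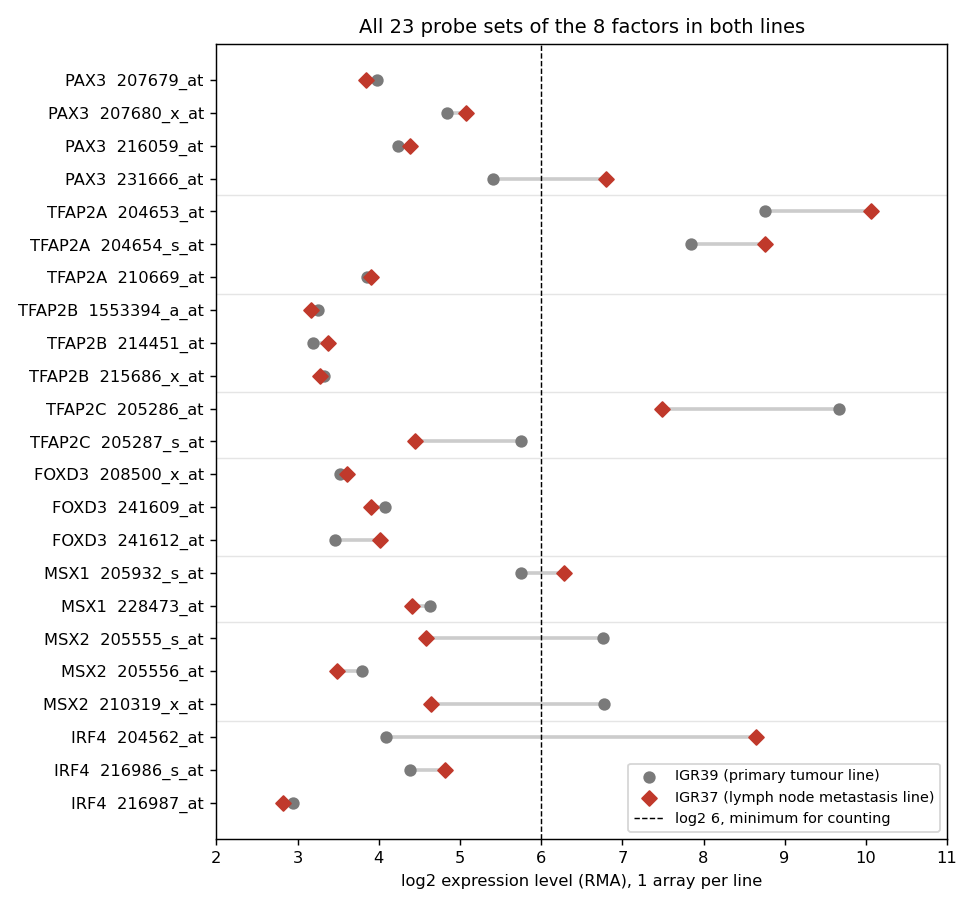
Log2 expression level of each of the 23 probe sets of the 8 factors, with a grey circle for IGR39 and a red diamond for IGR37 (1 array each) and a dashed line at log2 6. The IRF4 probe set 204562_at spans the widest gap, from 4.09 to 8.64, while all probe sets of TFAP2B and FOXD3 lie left of the dashed line.

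IRF4 encodes an interferon regulatory factor that works in lymphocytes and in pigment cells. Its probe set 204562_at was at 4.09 in IGR39 against 8.64 in IGR37. IRF4 was thus near background in the primary line and clearly measured in the metastasis line. The size of the difference, 4.55, depends on a level near background. The other probe sets of IRF4 did not share this gap. The probe set 216986_s_at was at 4.38 and 4.82, and 216987_at at 2.95 and 2.82, so both were under the minimum in both lines. The IRF4 difference therefore rests on 1 probe set, and the mean over all 3 gave 1.62. In bulk RNA, fewer cells with the transcript and less transcript per cell cannot be told apart.

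Since IRF4 is also a factor of B cells, plasma cells and T cells, markers of these cells were read beside it. Of 10 measured B and plasma cell markers, 2 reached log2 6, and both did so in each line. CD22 was at 6.22 in IGR39 against 6.26 in IGR37, and IGHM at 6.39 and 6.53. Each did so on its brightest probe set alone, and the other probe sets of both genes stayed under log2 6 in both lines. The B cell antigen gene MS4A1 was at 3.28 and 3.20, and the leukocyte antigen gene PTPRC at 3.31 and 3.41. None of 8 T cell and leukocyte markers reached the minimum. Summed on the linear scale and returned to log2, the B and plasma cell list was at 8.24 in IGR39 against 8.27 in IGR37, and the T cell and leukocyte list at 7.07 and 7.12. CD22 and IGHM gave the most to the B and plasma cell sum, and MS4A1 and PTPRC were near background in both lines. The part of such cells in the IRF4 level was not tested.

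The partners of IRF4 in lymphocytes were not raised alongside it. The ETS factors SPI1 and SPIB, with which IRF4 binds DNA in B cells, were at 3.79 and 3.55 and at 4.20 and 3.89. BATF, its AP-1 partner in T cells, stood at 7.18 in IGR39 and 7.55 in IGR37. PRDM1, a plasma cell factor that acts downstream of IRF4, was at 5.97 and 4.66, under the minimum in both lines. TYR, the melanocyte gene at which IRF4 acts with MITF, was at 4.22 in IGR39 against 11.36 in IGR37. Of the 7 genes in this list, 2 reached the minimum: TYR was at least 2-fold higher and BATF lay within 2-fold. TYR is also a general melanocyte gene, so the list does not separate IRF4 from the rest of the lineage.

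The sequence just upstream of the IRF4 start site is shown because it was the sole window of the members with letters of the AP-2 consensus. The window holds the 250 bases before the RefSeq start site on the forward strand, at chr6:391502-391751 of GRCh38.p14. Capitals mark the AP-2 letters GCCNNNGGC and the TATA letters TATAAA.
IRF4: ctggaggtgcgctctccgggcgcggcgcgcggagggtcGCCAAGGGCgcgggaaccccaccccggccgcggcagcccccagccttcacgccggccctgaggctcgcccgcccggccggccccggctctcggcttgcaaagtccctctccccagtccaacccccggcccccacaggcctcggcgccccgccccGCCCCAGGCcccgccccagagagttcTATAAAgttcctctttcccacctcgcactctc
The AP-2 letters begin 212 and 58 bases before the start site, and the TATA letters 32 bases before it. The window also holds 4 matches to the GC box GGGCGG and has a G and C content of 76.0%, against a median of 58% over 34943 promoter windows of the same length. AP-2 letters occur in 19.7% of those windows, TATA letters in 10.8% and the GC box in 42.5%. A match of letters is not a binding site, and no binding was measured here.

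PAX3 is a paired-box factor of the neural plate border and of melanocyte precursors, where it activates MITF with SOX10. Its probe set 231666_at was at 5.41 in IGR39 against 6.80 in IGR37, a 2.63-fold difference. The remaining 3 probe sets, which stayed under the minimum in both lines, hardly differed. The probe set 207679_at was at 3.98 and 3.85, 207680_x_at at 4.85 and 5.07, and 216059_at at 4.24 and 4.38. PAX3 was thus higher in the metastasis line on its brightest probe set alone, and the mean over all 4 gave 0.41.

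The PAX3 window is shown because, like that of MSX2, it holds a pair of CCAAT matches. It covers chr2:222298999-222299248 of GRCh38.p14 and is written along the reverse strand, on which the gene lies. Capitals mark CCAAT, searched on both strands.
PAX3: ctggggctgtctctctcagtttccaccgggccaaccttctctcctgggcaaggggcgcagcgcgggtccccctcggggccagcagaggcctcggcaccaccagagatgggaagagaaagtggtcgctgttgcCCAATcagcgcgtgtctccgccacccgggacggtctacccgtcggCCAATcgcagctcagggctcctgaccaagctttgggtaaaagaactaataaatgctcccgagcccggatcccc
The CCAAT letters begin 118 and 73 bases before the start site. No AP-2, CANNTG, SOX (ACAANG) or GGGCGG letters were found in this window. CCAAT letters occur in 32% of all windows.

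Genes on which PAX3 has been reported to act were read from a list of 7, of which 6 were measured and 3 reached the minimum. MITF stood at 7.57 in the primary line against 11.81 in the metastasis line, and TYRP1, a melanosomal protein gene, at 3.15 and 13.05. MET, a receptor of hepatocyte growth factor, was at 8.79 and 8.60. RET, a receptor of the enteric crest, was at 4.16 and 4.05, FGFR4 at 5.05 and 5.43, and TGFB2 at 4.62 and 4.33. The melanocytic genes of this list were higher in IGR37, as PAX3 was on its brightest probe set. The others lay within 2-fold or under the minimum. MITF and TYRP1 are also general melanocyte genes, so the list does not separate PAX3 from the rest of the lineage.

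In the PAX family, the other members did not follow PAX3. PAX7, its closest relative, which shares the dorsal neural tube and muscle precursors, was at 3.87 in IGR39 against 3.78 in IGR37. Of 8 measured relatives, 2 reached the minimum. PAX6, a factor of eye and forebrain, was at 6.74 and 4.995, a difference of -1.74, and PAX8, of thyroid and kidney, was at 6.73 and 6.79. When probe sets with the suffix _x_at or _s_at were left out, which can bind several transcripts, PAX6 lay under the minimum in both lines and left the count. The muscle factors MYOD1 and MYF5, which PAX3 precedes in limb muscle, stayed under log2 6, at 5.21 and 4.81 and at 3.24 and 3.63.

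**Figure D2:**
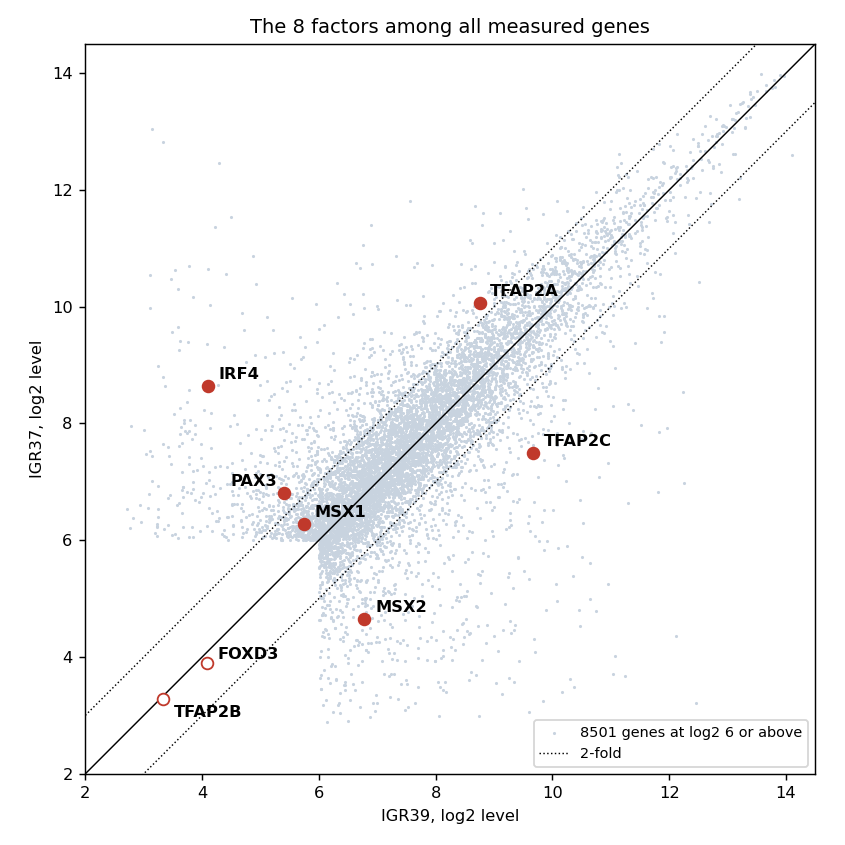
Log2 level in IGR39 (horizontal) against IGR37 (vertical) for the 8501 genes that reached log2 6 in their brighter line (pale points), with the 8 factors in red and open circles for those under the minimum. IRF4, PAX3 and TFAP2A lie above the dotted 2-fold line, TFAP2C and MSX2 below the lower one, and MSX1 between them.

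The AP-2 factors are retinoic acid-responsive proteins that bind DNA as dimers, and TFAP2A and TFAP2C went in opposite directions. TFAP2A, an inducer of the neural crest that also binds with MITF at pigment genes, was at 8.75 in IGR39 against 10.06 in IGR37 on probe set 204653_at. A second probe set above the minimum, 204654_s_at, was at 7.84 and 8.76, a difference of 0.91. TFAP2A was therefore well measured in both lines and higher in the metastasis line on both of these probe sets, of which 1 passed the 2-fold limit. The third, 210669_at, was at 3.85 and 3.90. The mean over all 3 was 0.76, inside the 2-fold limit.

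TFAP2C, best known from trophoblast, germ cells and luminal breast cells, stood at 9.67 in IGR39 and 7.49 in IGR37 on probe set 205286_at. This is a 4.54-fold lower level in the metastasis line. The second probe set, 205287_s_at, was at 5.76 and 4.45, a difference of -1.31 in the same direction though under the minimum in both lines. Both probe sets of TFAP2C were thus lower in IGR37. Its mean over both gave -1.74, past the 2-fold limit.

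TFAP2B, another crest member of the family, was near background in both lines. Its probe sets were at 3.26 and 3.17, 3.19 and 3.37, and 3.33 and 3.27 in IGR39 and IGR37. The remaining relatives were also under the minimum, with TFAP2D at 4.24 and 4.28 and TFAP2E at 3.90 and 3.81. The primary line thus held measured levels of TFAP2A and TFAP2C, and so did the metastasis line, with the difference between the lines of opposite sign for each.

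TFAP2A-AS1, a noncoding RNA read from the opposite strand beside TFAP2A, was measured by a pair of probe sets. The probe set 1560503_a_at was at 4.93 in IGR39 against 6.85 in IGR37, and 1557070_at at 5.78 and 6.29. Both were higher in the metastasis line, as TFAP2A was, with differences of 1.92 and 0.51.

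The table of RefSeq windows held 2 start sites for TFAP2A, both on the reverse strand. The one farther upstream is shown for its TATA letters, in capitals, at chr6:10419660-10419909 of GRCh38.p14.
TFAP2A: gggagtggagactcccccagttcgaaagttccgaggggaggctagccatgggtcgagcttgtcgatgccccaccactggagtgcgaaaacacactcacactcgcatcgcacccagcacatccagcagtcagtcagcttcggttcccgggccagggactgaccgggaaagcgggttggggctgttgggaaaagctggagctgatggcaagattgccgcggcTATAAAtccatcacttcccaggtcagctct
The TATA letters begin 30 bases before the start site. In the window of the other start site, none of the searched letters was found, and its G and C content was 71.2% against 59.6% for the one shown. The window of TFAP2B had a G and C content of 40.8%, the lowest of the 8 windows of members. TFAP2C had no entry.

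Genes reported to be bound by AP-2 or to depend on it included 12 measured, of which 6 reached the minimum. In IGR37, 4 were higher by 2-fold or more and 0 lower. The stem cell factor receptor gene KIT was at 5.95 in IGR39 against 10.04 in IGR37, and ERBB3, a neuregulin receptor, at 3.79 and 8.06. CDH1, which encodes E-cadherin, was at 3.07 and 6.56 on 1 probe set and at 3.61 and 3.56 on the other. MCAM, a melanoma adhesion molecule, was at 4.03 and 8.24 on a probe set ending in _x_at and at 5.06 and 5.21 on its other. ERBB2 and CDKN1A lay within 2-fold, with differences of -0.14 and -0.62. BCL2 was under the minimum on its brightest probe set, at 5.89 and 5.90, but was at 3.38 and 6.18 on another. IGFBP5, also under the minimum at 5.54 and 5.57 on its brightest probe set, was at 5.54 and 3.27 on another. With suffixed probe sets left out the count of higher genes was 1, and averaging every probe set of a gene gave 2. All 4 higher genes reached the minimum in IGR37 alone, so the filter shapes this count. KIT, ERBB3 and CDH1 are also melanocyte genes, so the list does not separate AP-2 from the rest of the lineage.

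Proteins that modify AP-2 activity also differed in both directions. The coactivators CITED1 and CITED2 were exchanged: CITED1, a gene of pigmented melanocytes, was at 4.65 in IGR39 against 7.09 in IGR37, while CITED2 was at 8.13 and 4.13. Another probe set of CITED2 showed the same, at 7.87 and 4.35, and the last was at 4.99 and 4.98. KCTD15 and KCTD1 are inhibitors of AP-2 that act during crest formation. KCTD1 was at 7.01 and 5.31, and KCTD15 at 6.17 and 6.97. Of 8 measured coregulators, 7 reached the minimum, 2 were higher by 2-fold or more and 2 lower. CITED1 is measured by a probe set ending in _s_at alone, so it has no value without that class. The other higher gene was WWOX, at 5.15 and 6.61 on its brightest probe set. Another of its probe sets was at 5.36 and 4.81, and the mean over all of them gave a difference of 0.41. Averaging every probe set of a gene left 1 higher and 1 lower, with KCTD1 at -0.62. With suffixed probe sets left out, 0 were higher and 2 lower.

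FOXD3, a forkhead factor that keeps crest cells from becoming melanocytes, was near background in both lines. The probe set 241609_at was at 4.08 in IGR39 against 3.90 in IGR37, 208500_x_at at 3.52 and 3.61, and 241612_at at 3.46 and 4.01. The noncoding RNA FOXD3-AS1, on the strand opposite FOXD3, was at 5.12 and 5.36. No probe set of FOXD3 reached the minimum, and a level of this gene below what the array resolves cannot be told from none.

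The relative FOXD1, a factor of kidney stroma and of crest-derived tissue, did reach it. FOXD1 was at 9.06 in IGR39 against 6.96 in IGR37, 4.31-fold lower in the metastasis line on its single probe set, which ends in _s_at. FOXD2 and FOXD4 were under the minimum, at 3.27 and 3.85 and at 4.86 and 4.81. FOXD1 was the sole measured member of the family past the 2-fold limit.

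MSX1 and MSX2 encode homeodomain repressors that are induced by BMP at the neural plate border. MSX2 was at 6.78 in IGR39 against 4.65 in IGR37 on probe set 210319_x_at, and at 6.77 and 4.58 on 205555_s_at. The pair gave nearly the same difference, -2.13 and -2.18, and both end in the suffix of probe sets that can match several transcripts. The probe set 205556_at, without such a suffix, was at 3.79 and 3.48, a difference of -0.30 under the minimum. MSX2 was thus lower in the metastasis line on 2 of 3 probe sets, and its difference was -0.30 when the suffixed ones were left out.

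MSX1 was at 5.75 in IGR39 against 6.28 in IGR37 on 205932_s_at, and at 4.63 and 4.41 on 228473_at. Its probe sets differed in sign, and neither reached the 2-fold limit. The difference of 0.53 on the brighter one, which is 1.45-fold, is little above the spread of 0.40 within genes. That spread leaves out probe sets under the minimum such as 228473_at.

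The MSX2 window lies on the forward strand at chr5:174724332-174724581 of GRCh38.p14, with CCAAT letters of either strand in capitals.
MSX2: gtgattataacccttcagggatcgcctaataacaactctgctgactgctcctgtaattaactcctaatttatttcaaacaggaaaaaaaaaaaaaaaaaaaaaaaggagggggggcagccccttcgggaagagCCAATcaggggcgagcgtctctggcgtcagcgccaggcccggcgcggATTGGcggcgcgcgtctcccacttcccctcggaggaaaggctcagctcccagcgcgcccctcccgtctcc
The CCAAT letters begin 117 and 70 bases before the start site, close to the 118 and 73 bases in PAX3. The pairs differ in orientation: the match nearer the start reads ATTGG in MSX2, on the other strand, and CCAAT in PAX3. The MSX1 window also held a pair of CCAAT matches, at 94 and 57 bases before its start. The searches for TATAAA and CCAAT were chosen after the windows had been read. Of the 8 windows of members, 4 held CCAAT letters, 3 TATAAA and 3 GGGCGG. Over all windows the shares were 32%, 10.8% and 42.5%. The E-box letters CANNTG were found in 1 window, that of FOXD3, against 61.8% of all windows. The form CATGTG, which is not the only one that MITF binds, was found in 0 windows of members and in 9.45% of all. The match in FOXD3 reads CACGTG, a form that was not counted over all windows.

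Several genes of the BMP pathway, which induces the MSX factors, were lower in the metastasis line. In the BMP list, 16 genes were measured and 9 reached the minimum, of which 6 were lower in IGR37 by 2-fold or more and 0 higher. ID1, a direct target of BMP that blocks basic helix-loop-helix factors, was at 9.35 in IGR39 against 4.55 in IGR37. ID2 and ID3 were at 8.25 and 6.94 and at 8.44 and 7.35. The inhibitory SMAD gene SMAD7 was at 7.11 and 4.63. Its relative SMAD6 was at 6.19 and 4.81 on the brightest of its probe sets, but averaging them gave a difference of -0.52, and leaving out suffixed ones gave -0.14. GREM1, a secreted BMP antagonist, was at 7.35 and 3.27, with 7.48 and 2.97 on its other probe set.

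The receptors and ligands of the pathway differed less. BMPR2 was at 7.41 in IGR39 against 7.26 in IGR37, and ACVR1 at 7.62 and 6.76. The ligand genes BMP2, BMP4 and BMP7 were under the minimum in both lines, BMP4 at 5.29 and 5.28. BMP7 was at 5.76 and 5.68 on its brightest probe set and at 3.85 and 5.41 on another. SMAD9, which carries the BMP signal, was also under the minimum, at 3.81 and 4.86. ID1, SMAD6, SMAD7 and GREM1 reached the minimum in IGR39 alone, so the filter shapes the count of lower genes. With suffixed probe sets left out, ID1, ID2 and ID3 had no value, SMAD6 lost its call, and 2 genes of the list were at least 2-fold lower.

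Of 6 measured distal-less homeobox genes, which are relatives of MSX in the branchial arches, 2 reached the minimum and both were lower in IGR37. DLX2 was at 8.47 in IGR39 against 4.23 in IGR37 on its brightest probe set and at 5.95 and 5.80 on the other. DLX1, its neighbour in the genome, was at 8.34 and 6.33. DLX5 and DLX6, the border genes of this family, were near background at 3.65 and 4.01 and at 3.70 and 3.65.

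**Figure D3:**
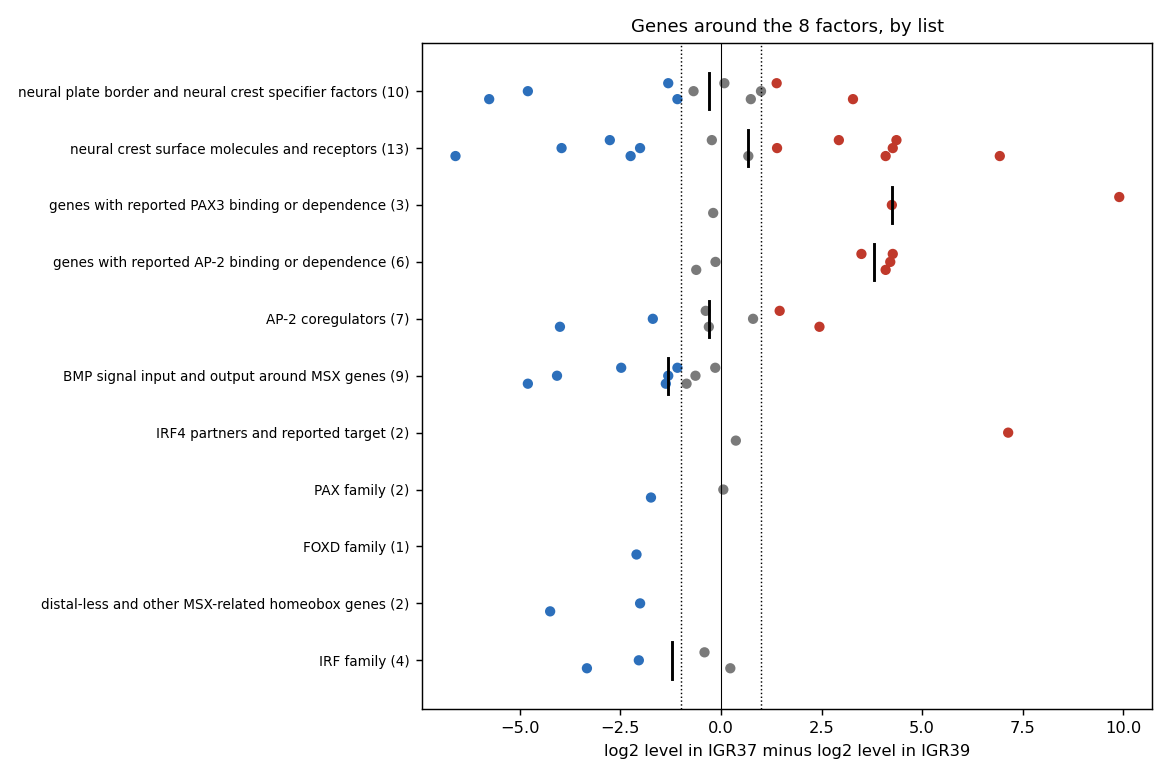
Difference in log2 level, IGR37 minus IGR39, for genes of each list that reached log2 6 in the brighter line (number in brackets). Each point is a gene, red or blue where at least 2-fold higher or lower (dotted lines), and a black bar marks the median of lists with at least 3 genes; the BMP list has 6 blue and 0 red points.

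The wider set of border and crest specifiers held genes that differed in each direction. Of 24 measured, 10 reached the minimum, 2 were higher in IGR37 by 2-fold or more and 4 lower by as much. SNAI2, the zinc finger factor of crest emigration, was at 8.94 in IGR39 against 10.33 in IGR37. LEF1, a nuclear partner of beta-catenin, was at 5.23 and 8.51 on 1 probe set, while its other probe sets stayed under the minimum. NR2F1, an orphan nuclear receptor, was at 9.13 and 3.37. ETS1 and TWIST1 were measured in both lines and lay within 2-fold, at 7.95 and 8.69 and at 6.72 and 7.71. ZIC1, a border factor, was at 7.16 and 6.48. With suffixed probe sets left out, 1 specifier was higher and 1 lower, and averaging every probe set gave 1 and 4.

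Surface molecules of the crest were divided as well. Of 17 measured, 13 reached the minimum, 6 were higher by 2-fold or more and 5 lower. EDNRB, the endothelin receptor of melanoblasts, was at 3.77 in IGR39 against 10.70 in IGR37. NRP1, a semaphorin receptor, was at 9.84 and 3.24. The nerve growth factor receptor NGFR, a marker of crest stem cells, lay near background, at 3.69 and 3.76.

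Over all 111 measured genes of the lists, 59 reached the minimum, of which 20 were higher by 2-fold or more and 20 lower. With suffixed probe sets left out, these counts were 13 and 12. The lists were composed with earlier results of these arrays known, so their counts describe them and support no direction.

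Likeness between genes was measured as the gap between their differences over the 2 arrays, among the 59 list genes at the minimum. Nearest to IRF4 were ABCB5 with 4.36, ERBB3 with 4.27 and MITF with 4.25. Nearest to both PAX3 and TFAP2A were SNAI2 with 1.38, the transferrin receptor gene TFRC with 1.39 and WWOX with 1.46. Nearest to both TFAP2C and MSX2 were FOXD1 with -2.11, NCAM1 with -2.25 and IRF9 with -2.04. With 2 arrays, a near difference says only that these values lie close.

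Among the measured genes of the IRF family, IRF4 alone was higher in the metastasis line by 2-fold. Of 7 measured relatives, 4 reached the minimum, 2 were at least 2-fold lower and 0 higher. IRF1, an activator of interferon-stimulated genes, was at 8.36 in IGR39 against 5.03 in IGR37, and at 7.27 and 4.38 on its second probe set. IRF9, the DNA-binding part of the interferon-activated complex, was at 7.30 and 5.26. IRF3 was at 7.83 and 7.42, IRF5 at 5.78 and 6.02, and IRF8, the closest relative of IRF4, at 4.47 and 4.30.

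The identity of the lines was read from melanocyte markers, of which 6 of 7 were measured. In IGR37 all 6 reached log2 6, from 10.65 for SOX10 to 13.05 for TYRP1. In IGR39, 1 of them did, MITF at 7.57, and the lowest was TYRP1 at 3.15. In a longer list of the lineage, 9 genes were measured, and the 8 that reached the minimum were all higher in IGR37 by 2-fold or more. The melanosome genes MLANA, PMEL and OCA2 were at 3.33 against 12.83, 4.29 against 12.47 and 4.50 against 11.53. GPR143, a receptor gene of pigment cells, lay near background at 3.34 and 3.38. Most defining markers of the lineage were thus near background in the primary line, which held TFAP2A, TFAP2C, MSX2 and SNAI2 above the minimum. Epidermal keratinocytes also express TFAP2A and TFAP2C, and of 7 keratinocyte markers measured, KRT10 alone reached the minimum, at 9.13 and 9.08. KRT5 and KRT14 were near background, at 3.87 and 3.85 and at 3.29 and 3.25. The keratinocyte list summed to 9.30 in IGR39 and 9.25 in IGR37. No marker of 5 measured for macrophages and dendritic cells, or of 6 for skeletal muscle, reached the minimum. Of 8 fibroblast and endothelial markers, LUM reached it, at 3.41 and 6.26.

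The factors kept the sign of every difference past 2-fold over the reported and 5 other ways of processing, but not their size. Not all of these ways could change a sign. Centring on medians or housekeeping genes shifted every difference by only 0.02 or -0.13. Leaving out suffixed probe sets kept the same probe set for PAX3, TFAP2A, TFAP2C and IRF4. TFAP2C lay between -2.32 and -1.74, and IRF4 between 1.62 and 4.57. TFAP2A ranged from 0.76 to 1.33, PAX3 from 0.41 to 1.42 and MSX2 from -2.26 to -0.30, so each of these crossed the 2-fold limit under at least 1 way.

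**Figure D4:**
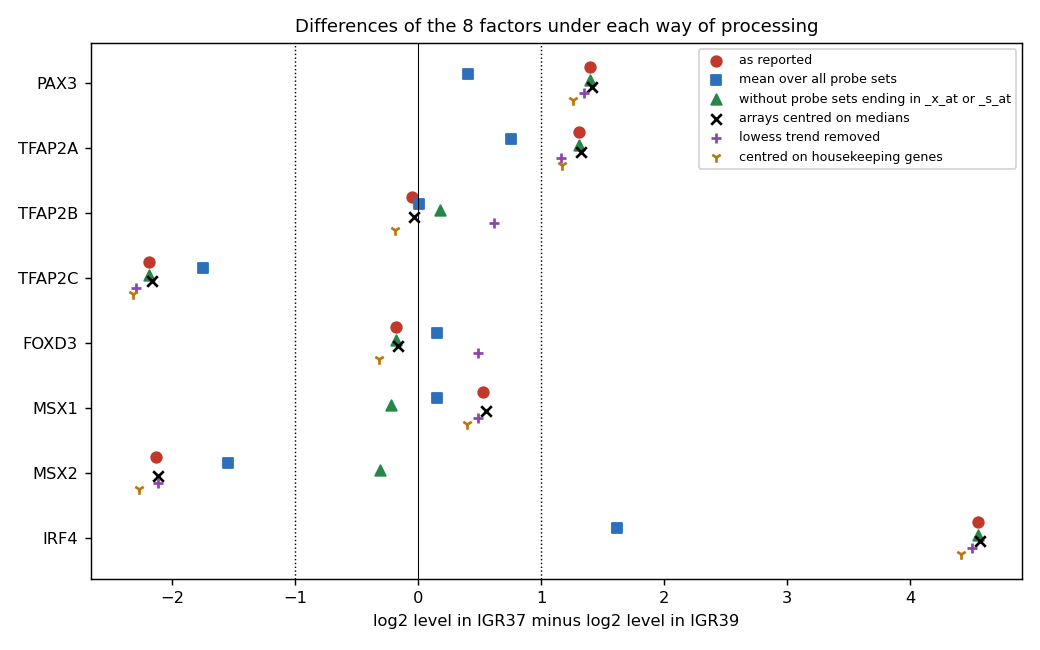
Difference in log2 level, IGR37 minus IGR39, of each of the 8 factors as reported and under 5 other ways of processing, with dotted lines at 2-fold. TFAP2C stays left of -1 under all 6, and IRF4 right of 1, while MSX2 moves to -0.30 when probe sets with the suffix _x_at or _s_at are left out and PAX3 to 0.41 with the mean over all its probe sets.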

How the data were processed

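The deposited table holds log2 levels, 1 per probe set and array, which the authors computed by RMA with the package affy, per the submitters' processing notes. No version, and no list of the arrays normalised together, is given in the sources used here. RMA makes the distributions of the arrays alike, so an overall difference in brightness is removed. Each array held 54675 probe sets, with medians of 4.17 in IGR39 and 4.14 in IGR37, and 13092 and 13272 probe sets at or above log2 6. Names came from the platform annotation, and gene identifiers led to current symbols in a RefSeq table of GRCh38.p14: 41091 had 1 symbol, 1801 several and 11721 none here, and 41037 matched by identifier. Only those with 1 symbol entered gene values. The sequences are RefSeq promoter windows of the same assembly, found for 7 of the 8 members.

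For each gene the probe set with the highest mean was kept, and the difference, the count past 2-fold and the list medians were computed. No test was run, since each line has 1 array, and so small a number limits the precision. The members and the lists were chosen with earlier results of these data known. All members were named whatever their value, with up to 5 genes of largest absolute difference from each list. Other list genes, markers and neighbours were named after their values were seen. Alternatives were minima of log2 5, 7 or none, fold limits of 1.5 and 4, the mean over every probe set of a gene, omitting those with the suffix _x_at or _s_at, centring on array medians or housekeeping genes, and subtracting a lowess trend (span 0.3). The calculation was tested on simulated data, with known changes added only to genes of high mean level and noise below the spread within genes. That test does not cover recovery at lower mean levels, such as those of IRF4, PAX3 and MSX2. Calculations ran in Python 3.11.15 with numpy 2.4.6, pandas 2.3.3, statsmodels 0.14.6 and matplotlib 3.10.9.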

Additional observations from a re-analysis of the deposited data

How the results depend on the processing

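No paired analysis was possible because each line has 1 array and no replicate number. No difference past 2-fold changed sign under the alternatives run, though the small constant shifts of centring could not have changed one. Averaging every probe set of a gene gave differences of 0.41 for PAX3, 0.76 for TFAP2A, -1.74 for TFAP2C, -1.54 for MSX2 and 1.62 for IRF4. Then 0 of the factors counted as at least 2-fold higher and 1 as lower: PAX3 and TFAP2A lay inside the 2-fold limit, and the averaged levels of IRF4 and MSX2 lay under the minimum. Over all genes 588 were higher and 503 lower. With probe sets of the suffix _x_at or _s_at left out, MSX1 was at -0.22 and MSX2 at -0.30, 1 factor was lower, and 13 list genes were higher and 12 lower. A minimum of log2 7 left 2 factors higher and 1 lower, since PAX3 and MSX2 lay under it. A fold limit of 4 left 1 higher, IRF4, while TFAP2C and MSX2, at -2.18 and -2.13, both still counted as lower. Over all genes, 1958 were higher and 1460 lower at a limit of 1.5-fold, and 315 and 349 at 4-fold. Removing the lowess trend put TFAP2B at 0.62 and FOXD3 at 0.49. Both lie below 4.50, the lowest mean level in that fit, so these values carry its edge outward. Centring on housekeeping genes shifted every difference by -0.13, and 788 genes were then higher and 973 lower. Of the other values, 437 single-gene differences and list counts stayed within the spread of 0.40 or within 1.5 times the reported count. A further 62 moved beyond these limits. A reversal was scored only for a difference past 2-fold, with 0 found. Smaller differences could change sign, as that of KCTD15 did, from 0.80 to -0.02 with suffixed probe sets left out.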

Other observations

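The nearest protein-coding genes with a probe set on either side of each factor were read after the values of the factors had been seen. Of 16 such neighbours, 7 reached log2 6, of which 2 were higher in IGR37 by 2-fold or more and 0 lower, beside 11.4% and 9.50% of all genes. GCNT2, the glycosyltransferase gene beside TFAP2A on chromosome 6, was at 6.23 in IGR39 against 7.93 in IGR37. SLC35B3, on its other side, was at 8.15 and 8.33. ALG6, an enzyme gene of N-glycan assembly beside FOXD3 on chromosome 1, was at 6.66 and 7.70. Its difference of 1.04 was 0.96 with the lowess trend removed and 0.91 when centred on housekeeping genes, inside the 2-fold limit.

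The neighbours of IRF4 on chromosome 6 lay within 2-fold on their brightest probe sets. DUSP22, a phosphatase gene, stood at 6.87 in IGR39 against 7.63 in IGR37, and EXOC2, of the exocyst complex, at 5.73 and 6.35. Averaging every probe set of a gene gave differences of 1.62 for IRF4, 1.31 for DUSP22 and 0.96 for EXOC2, and EXOC2 was at 1.30 with suffixed probe sets left out. Beside PAX3 on chromosome 2, the ephrin receptor gene EPHA4 was at 6.64 and 5.69, in the opposite direction to PAX3. The neighbours of TFAP2C, which include BMP7, and those of MSX2 were under the minimum in both lines.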
